A study of Mus musculus with 2 samples.

Results

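The genes described here are 10 members of the interleukin 6 (IL-6) cytokine pathway, picked by name from the 44792 genes of a deposited RNA sequencing count table, and all 10 have a row in it. They are the ligands Il6, Il11 and Lif, the receptor chains Il6st, Il6ra, Il11ra1, Osmr and Lifr, the transcription factor Stat3 and its feedback inhibitor Socs3. The table holds 2 libraries of OCCM-30, an immortalized mouse line, labelled wild type, that resembles cementoblasts, the cells that form root cementum. The cells of one library, called the force library here, were exposed to compressive force, and those of the other were controls. Neither the magnitude nor the length of the loading is given in the sources used here. With 1 library per group there are no replicates, so every value below compares 2 libraries and not 2 conditions, and no p-value was computed.

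Cytokines of this family share gp130, the receptor chain encoded by Il6st. A ligand joins gp130 to itself or to a partner chain, Janus kinases bound to the receptor then phosphorylate STAT3, and STAT3 enters the nucleus and switches on target genes. One of these is Socs3, whose protein binds gp130 and the kinases and stops the signal. In bone, IL-6 family cytokines made by osteoblast-lineage cells act on osteoclast formation and on matrix formation.

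Depth was close in both libraries, with totals of 24296292 counts (force) and 25049919 counts (control). Collagen I and Runx2 were well covered, with 188419 and 188837 counts of Col1a1 and 4416 and 5788 counts of Runx2 in the force and control libraries. Of the 9 listed markers of mineralizing cells, 7 lay above 1 CPM (counts per 1000000 counts of the scaled library) in a library, 6 with ratios above 1 and Runx2 with a ratio of 0.787 (counting interval 0.757 to 0.819). Of all 14001 genes that reached 1 CPM, 48.7% had ratios above 1. Apart from Phospho1, the marker ratios above 1 ran only from 1.03 (Col1a1) to 1.1 (Spp1). Phospho1, a phosphatase of matrix mineralization, had 657 counts under force and 313 in the control library, a ratio of 2.16 (1.89 to 2.49). It was the marker called higher by the rule given below, as were 3.06% of the 14001 genes. Bone sialoprotein (Ibsp), a defining cementoblast marker, had 0 counts in both. Of the 9 listed macrophage and osteoclast markers, whose cell types are a main source of the family ligand oncostatin M, 4 lay above 1 CPM in a library, and the summed level of all 9 was 20.1 CPM under force and 21.1 CPM in the control library. The pan-leukocyte marker Ptprc had 0 counts in both. Endothelial markers summed to 4.32 CPM (force) and 4.15 CPM (control) and epithelial markers to 1.94 CPM (force) and 1.84 CPM (control). Of the 5 lymphocyte markers, 4 had 0 counts in both libraries.

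The comparison asked how the transcriptome of loaded cells differed from that of control cells, here for this pathway. The signalling end of the pathway, Stat3 and Socs3, had ratios of 1.3 and 1.36 in the force library over the control library, while the receptor chains lay near or below a ratio of 1 and the 3 ligands did not point one way. Calls of higher or lower went to genes that reached 1 CPM in either library, differed at least 2-fold between libraries (a force-to-control ratio of 2 or more, or of 0.5 or less), and had a 95% counting interval that excluded 1. Of the 9 members that reached 1 CPM, 0 were called higher and 0 lower, against 3.06% of 14001 genes called higher and 0.929% called lower. Their median log2 ratio was 0.01, beside -0.01 over all 14001 genes. The counting interval of 5 of the 9 members (55.6%) excluded 1, and so did that of 54.9% of all genes, so the members stood close to the background by this measure. All intervals cover counting error only. Sequenced reads are not independent molecules, and the spread between cultures is not in them. In bulk RNA, more cells that express a gene and more RNA per cell cannot be told apart.

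**Figure D1:**
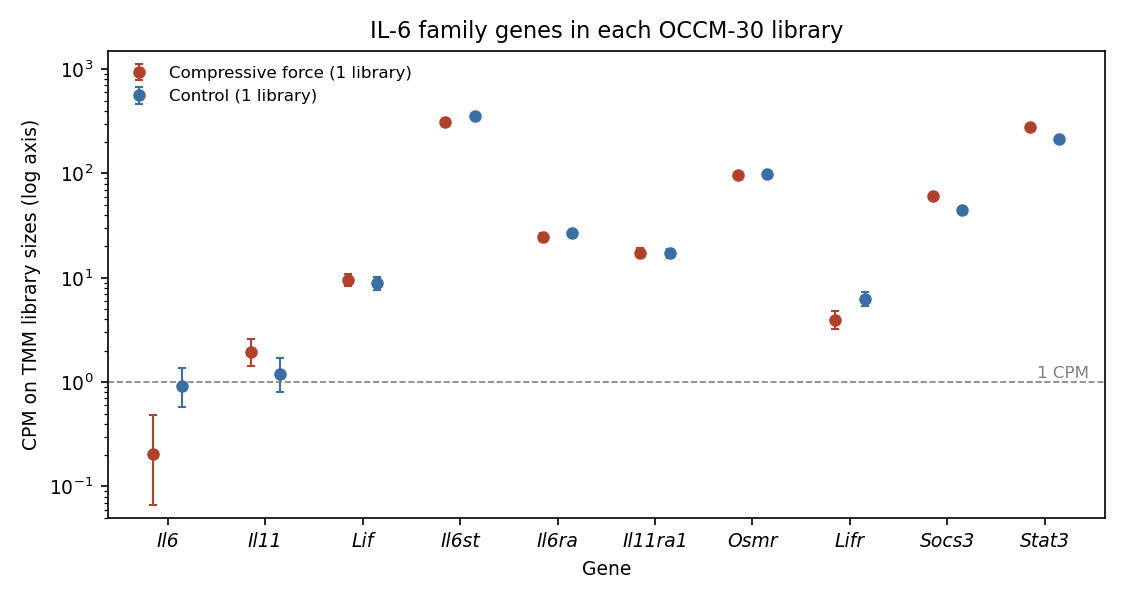
Level of each gene in CPM on a log axis, with the compressive force library in red at left and the control library in blue at right of each pair. Bars are exact 95% Poisson intervals of 1 library's count. Il6 lies below 1 CPM in both libraries. The share of all genes whose bars do not overlap was not counted, so overlap of the bars is not read here.

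Il6, which encodes the pyrogenic and bone-resorptive cytokine that names the family, was barely detected. It had 5 counts (0.206 CPM) in the force library and 23 counts (0.918 CPM) in the control library. Both values lie under the 1 CPM limit, and only the control library came near it. The ratio was 0.242, with a 95% counting interval of 0.0666 to 0.603. Without the CPM limit Il6 would be called lower, as would 1.62% of the 22774 genes with at least 1 count. Il6 lies on chromosome 5 at 30013114 to 30019975 (GRCm38), where it overlaps the lncRNA A230098N10Rik, which had 0 counts in both libraries.

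Il11 encodes a cytokine of bone and stromal cells that signals through its own receptor chain and gp130. It had 47 counts (1.94 CPM) in the force library and 30 counts (1.2 CPM) in the control library. The ratio of 1.61 had a counting interval from 1.001 to 2.65, whose lower limit all but touches no difference and fell below 1 with DESeq2 size factors or a loess fit. A ratio at least as high was seen in 871 of the 14001 genes (6.22%). Lif encodes leukaemia inhibitory factor, which acts on osteoblast and stem cell differentiation. It had 231 counts (9.51 CPM) in the force library and 221 counts (8.82 CPM) in the control library, a 1.08-fold ratio (interval 0.893 to 1.3). Il11 lies on chromosome 7 at 4772373 to 4782907, overlapping Tmem190 with 0 counts in both libraries, and Lif on chromosome 11 at 4257568 to 4272514. A difference in Lif was not detectable at this depth, and the interval leaves out changes of 1.5-fold or more in these libraries.

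The promoters of the ligands and of Socs3 are shown because these genes are known to be switched on through short DNA motifs that the pathway or inflammatory signals use. Sequences are from RefSeq on build GRCm38.p6, in windows of 250 bases before to 50 bases after a transcript start (for Socs3 and Il11 the window shown lies inside the annotated gene span, which reaches farther upstream), and all 10 members were matched by symbol, with 13 windows between them. Capitals mark the motif matches, and positions count back from the transcript start.
Il6, chr5:30012864-30013089, plus strand: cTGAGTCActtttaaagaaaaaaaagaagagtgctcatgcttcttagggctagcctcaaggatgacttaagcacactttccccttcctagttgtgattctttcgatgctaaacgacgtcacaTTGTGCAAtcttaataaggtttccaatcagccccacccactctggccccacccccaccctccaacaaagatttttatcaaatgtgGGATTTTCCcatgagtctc
Il11, chr7:4778223-4778249, minus strand: ggagggagggTGAGTCAggatgtgtca
Lif, chr11:4257330-4257356, plus strand: cagtcagctgTGACTCAggccatagtg
Socs3, chr11:117969502-117969530, minus strand: gaaaccagccTTCTTAGAAgggagggggg

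The motifs were searched on both strands, were chosen with these sequences in view, and no 2 matches overlap. TGANTCA, a loose form of the AP-1 motif, is at -249 in Il6, at -98 in Il11 before the inner of its 2 listed starts, and at -228 in Lif. This loose form also matches in Osmr, as TGATTCA, just after the transcript start. It matches in 4 of the 13 member windows in all and in 7.81% of the 32851 promoter windows of the genome table. GGANTTTCC, the core of an NF-kB motif, matches at -43 in Il6 and in 1.25% of all windows. TTGNGCAA, a C/EBP motif, matches at -128 in Il6 and in 2.94% of all windows. TTCNNNGAA, the motif that STAT dimers bind, matches at -154 in Socs3, in no other member's window, and in 8.3% of all windows. These matches describe the letters of the windows. Whether any match bears on the ratio of its gene was not tested.

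Il6st encodes gp130, the chain that the receptors for IL-6, IL-11 and LIF share. It had 7564 counts (311 CPM) in the force library and 8850 counts (353 CPM) in the control library, a 0.882-fold ratio (interval 0.855 to 0.91). The interval is narrow because the counts are large, but 3808 of the 14001 genes (27.2%) had a ratio at least as low. Il6st lies on chromosome 13 at 112464070 to 112506860, where no other RefSeq gene overlaps it.

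The counting intervals of the ligand-binding chains Il6ra and Il11ra1 included 1. Il6ra, which binds IL-6 and also occurs as a shed soluble receptor, had 599 counts (24.7 CPM) in the force library and 672 counts (26.8 CPM) in the control library, with a ratio of 0.92 and an interval of 0.823 to 1.03. It lies on chromosome 3 at 89869324 to 89913196. Il11ra1, the IL-11 receptor alpha chain, had 422 counts (17.4 CPM) in the force library and 431 counts (17.2 CPM) in the control library, a 1.01-fold ratio (interval 0.881 to 1.16). Il11ra1 has a near-identical copy, Il11ra2, and overlaps the chemokine gene Ccl27a on chromosome 4, where it spans 41760443 to 41769473. Il11ra2 was assigned 2 counts under force and 0 in the control library, and Ccl27a 42 and 40 counts. No source used here says how reads shared by these genes were divided, so the Il11ra1 values are uncertain.

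Among the members, Osmr and Lifr encode signalling partner chains of gp130. Osmr, the partner that oncostatin M uses, had 2362 counts (97.3 CPM) in the force library and 2483 counts (99.1 CPM) in the control library, with a ratio of 0.982 and an interval of 0.927 to 1.04. Lifr, the partner for LIF and related ligands, had 96 counts (3.95 CPM) in the force library and 157 counts (6.26 CPM) in the control library. Its ratio of 0.632, with an interval of 0.484 to 0.819, was the lowest of the 5 receptor chains. A ratio at least as low was found for 434 of the 14001 genes (3.1%). Both genes lie on chromosome 15, Osmr at 6813568 to 6874968 and Lifr at 7090610 to 7197489. Of the 5 chains, Il11ra1 had a ratio above 1, where 48.7% of the 14001 genes did, and 4 had ratios below 1. Among these 4, Osmr moved to 1.004 with a loess fit on abundance, and only Il6st and Lifr had counting intervals below 1.

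Stat3 encodes the transcription factor that all these receptors activate. It had 6824 counts (281 CPM) in the force library and 5403 counts (216 CPM) in the control library. The ratio of 1.3 had a counting interval of 1.26 to 1.35, and 2060 of the 14001 genes (14.7%) had a ratio at least as high. Socs3, the feedback inhibitor, had 1477 counts (60.8 CPM) in the force library and 1117 counts (44.6 CPM) in the control library. Its ratio was 1.36 with an interval of 1.26 to 1.48, and 1676 genes (12%) had a ratio at least as high. Both genes lie on chromosome 11, Stat3 at 100886806 to 100939594 and Socs3 at 117966079 to 117970336. The RefSeq lncRNAs Gm46295, which overlaps Stat3, and Gm46811, which overlaps Il6ra, were not analysed here.

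**Figure D2:**
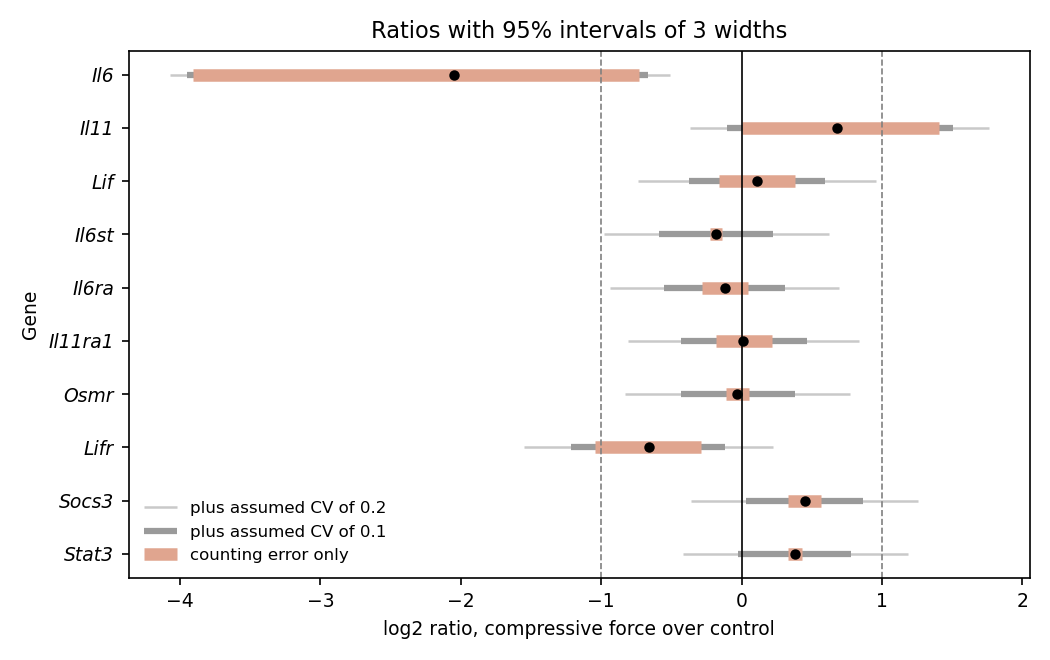
The log2 ratio of the compressive force over the control library for each gene (black points), with 95% intervals for counting error alone (thick, salmon) and after adding an assumed coefficient of variation between cultures of 0.1 (grey) or 0.2 (thin, light grey). Dashed lines mark a 2-fold difference. With the coefficient of 0.1 the intervals of Il6, Lifr and Socs3 still lie to 1 side of 0, and with 0.2 that of Il6 alone does.

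The spread between cultures cannot be measured from 1 library per group, so its possible size was assumed. With a coefficient of variation of 0.1 between cultures, the interval of Socs3 ran from 1.02 to 1.82 and that of Lifr from 0.43 to 0.923, and both excluded 1. Under that assumption 9.3% of all genes had intervals above 1 and 5.99% below. The interval of Stat3 ran from 0.985 to 1.72, that of Il6st from 0.667 to 1.17 and that of Il11 from 0.929 to 2.84, and these included 1. With a coefficient of 0.2, under which 3.34% of all genes had intervals above 1 and 0.9% below, all 9 members above 1 CPM had intervals that included 1, while Il6, below that limit, had one of 0.0594 to 0.704.

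**Figure D3:**
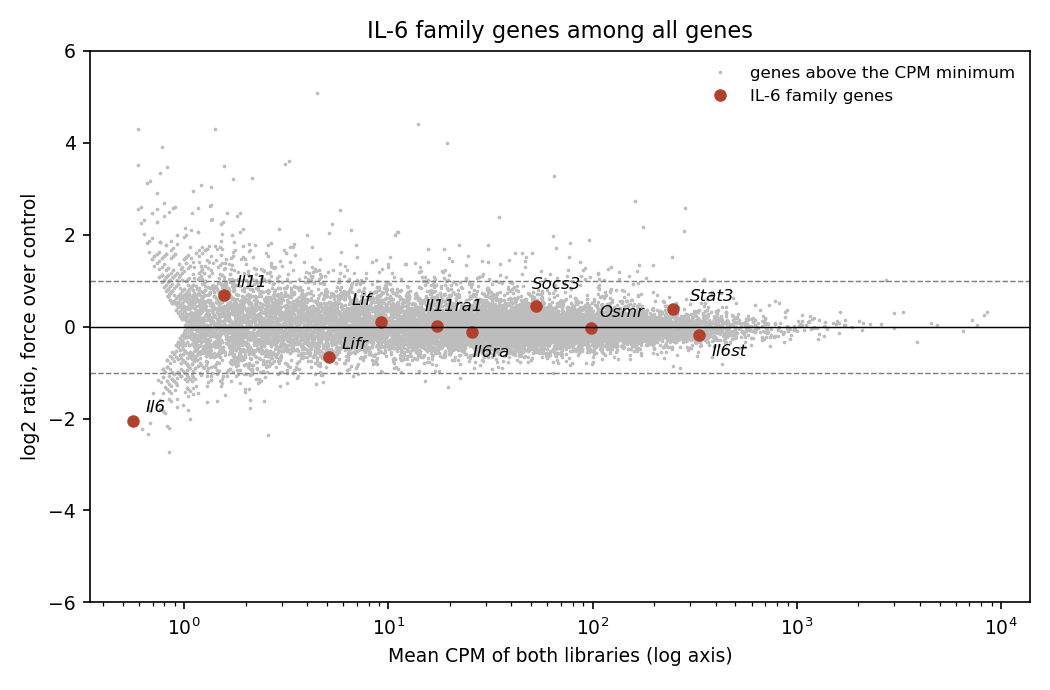
The log2 ratio of compressive force over control against mean CPM (log axis) for all 14001 genes above the CPM minimum (grey) and the 10 pathway genes (red). Dashed lines mark a 2-fold difference. The 9 members above the minimum lie between -0.66 and 0.68, inside the dashed lines, and Il6 lies at -2.05 at the low-abundance edge, where ratios spread most.

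Reads of 1 gene set against those of another within a library do not depend on the scaling of the libraries, and Il6st, chosen after its values were seen, was used as the base because Il6, Il11 and Lif all act through gp130. For every 100 Il6st counts there were 90.2 Stat3 counts in the force library and 61.1 in the control library, a quotient of 1.48 with a 95% counting interval of 1.41 to 1.55. Socs3 had 19.5 counts per 100 Il6st counts in the force library and 12.6 in the control library, a quotient of 1.55 (1.42 to 1.68). Osmr had 31.2 and 28.1, a quotient of 1.11 (1.04 to 1.19). For Lifr the quotient was 0.715 (0.548 to 0.93), from 1.27 counts under force and 1.77 in the control library. Il6ra, with a quotient of 1.04 (0.929 to 1.17), and Il11ra1, with 1.15 (0.996 to 1.32), had intervals that included 1. The quotients of the ligands were 0.254 (0.0755 to 0.685) for Il6, 1.83 (1.13 to 3) for Il11 and 1.22 (1.01 to 1.48) for Lif. Since Il6st itself had a ratio below 1, every quotient lies above the gene's own ratio. Of the 14001 genes, 72.8% had a ratio at least as high as that of Il6st, so quotients above 1 are common with this base. The own ratios of Osmr (0.927 to 1.04) and Lif (0.893 to 1.3) had intervals that included 1. The share of all genes whose quotient intervals exclude 1 was not counted. Gene length was not known, so these figures are not molar levels.

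The other genes of the pathway were taken as 7 lists with 92 genes, none of them in more than 1 list. Of these, 67 lay above 1 CPM, 1 was called higher and 0 lower, where 3.06% of all genes were called higher and 0.929% lower. Among the other ligands of the family, 4 of 9 genes passed the limit, and all 4 intervals included 1. Cardiotrophin 1 (Ctf1) had 225 counts under force and 200 in the control library, Clcf1 213 and 253, and Cntf 34 and 46. Oncostatin M (Osm), the main ligand for Osmr, had 0 counts in each library, so its level could be up to 0.124 CPM (force) or 0.12 CPM (control), the worth of 3 counts. The other receptor chains had 0 of 4 genes above the limit, with Cntfr, the ciliary neurotrophic factor receptor, at 18 counts in each library. The proteases that shed the IL-6 receptor had intervals that included 1, with ratios of 1.04 (0.948 to 1.14) for Adam10 and 0.958 (0.905 to 1.01) for Adam17.

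Kinases and other STATs had 9 of 10 genes above the limit, 0 of them called, with a median log2 ratio of 0.10. Intervals lay above 1 for 5 of the 9 and below 1 for 0, where 26.3% of all genes had intervals above 1 and 28.6% below. Stat2, a factor of the type I interferon response, had 1601 counts in the force library and 1017 in the control library, a ratio of 1.62 (1.5 to 1.76). Jak3 had a ratio of 1.31 (1.16 to 1.47). Stat5a, at the low end of the list, had a ratio of 1.02 (0.943 to 1.09).

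Other SOCS proteins and regulators of the signal had 18 of 19 genes above the limit, with 0 called and a median log2 ratio of -0.03. Intervals lay above 1 for 4 and below 1 for 8 of the 18, beside 26.3% and 28.6% of all genes. Pias4, a SUMO ligase that restrains STATs, had 778 counts under force and 494 in the control library, a ratio of 1.62 (1.45 to 1.82). Cish, a SOCS family inhibitor best known downstream of STAT5, had a ratio of 1.42 (1.15 to 1.76). Socs5 had 2437 counts under force and 3380 in the control library, a ratio of 0.744 (0.706 to 0.784), and Socs6 had a ratio of 0.833 (0.765 to 0.908). To complete the SOCS genes of the list, Socs7 had a ratio of 0.924 (0.874 to 0.978), and the intervals of Socs1, Socs2 and Socs4 included 1.

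Genes known as STAT3 targets in other cell types had 21 of 33 members above the limit, with 0 called and a median log2 ratio of 0.05. Their intervals lay above 1 for 8 and below 1 for 7 of the 21, beside 26.3% and 28.6% of all genes, of which 3.06% were called higher and 0.929% lower. The kinase Pim1, which promotes survival, had 1278 counts under force and 688 in the control library, a ratio of 1.92 (1.75 to 2.11). Vegfa, the angiogenic factor, which low oxygen also induces, had a ratio of 1.93 (1.85 to 2.02). The growth genes Myc, with 497 counts under force and 786 in the control library, and Ccnd1, with 3172 and 4756, had the lowest ratios among the members above 1 CPM, at 0.653 (0.582 to 0.731) and 0.688 (0.658 to 0.72). Acute phase genes of the list, chosen after their values were seen, differed in coverage. Lbp, which encodes lipopolysaccharide-binding protein, had 1685 counts under force and 1287 in the control library, a ratio of 1.35 (1.26 to 1.45), whereas Saa3 had 4 and 7 counts, Lcn2 0 and 3, and Fgb and Serpina3n 1 and 0 each. Hp, Fgg, Fga, A2m and Lrg1 had 0 counts in both libraries.

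The listed regulators of Il6 mRNA had 13 of 15 genes above the limit, with 1 called higher, 0 called lower and a median log2 ratio of 0.03, beside 3.06% and 0.929% of all genes called. Intervals lay above 1 for 4 and below 1 for 5 of the 13, beside 26.3% and 28.6% of all genes. The called gene was Zfp36, which encodes tristetraprolin, a factor that binds AU-rich elements and speeds the decay of cytokine mRNAs. Zfp36 had 347 counts in the force library and 139 in the control library, a ratio of 2.57 (2.11 to 3.16). Zc3h12b, a relative of the ribonuclease regnase-1, had 43 counts under force and 25 in the control library, a ratio of 1.76 (1.06 to 3.03). Zc3h12c at 0.767 (0.689 to 0.852) and Zfp36l2 at 0.847 (0.799 to 0.896) had the lowest ratios above the limit. Whether the level of Zfp36 bears on that of Il6 was not tested.

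**Figure D4:**
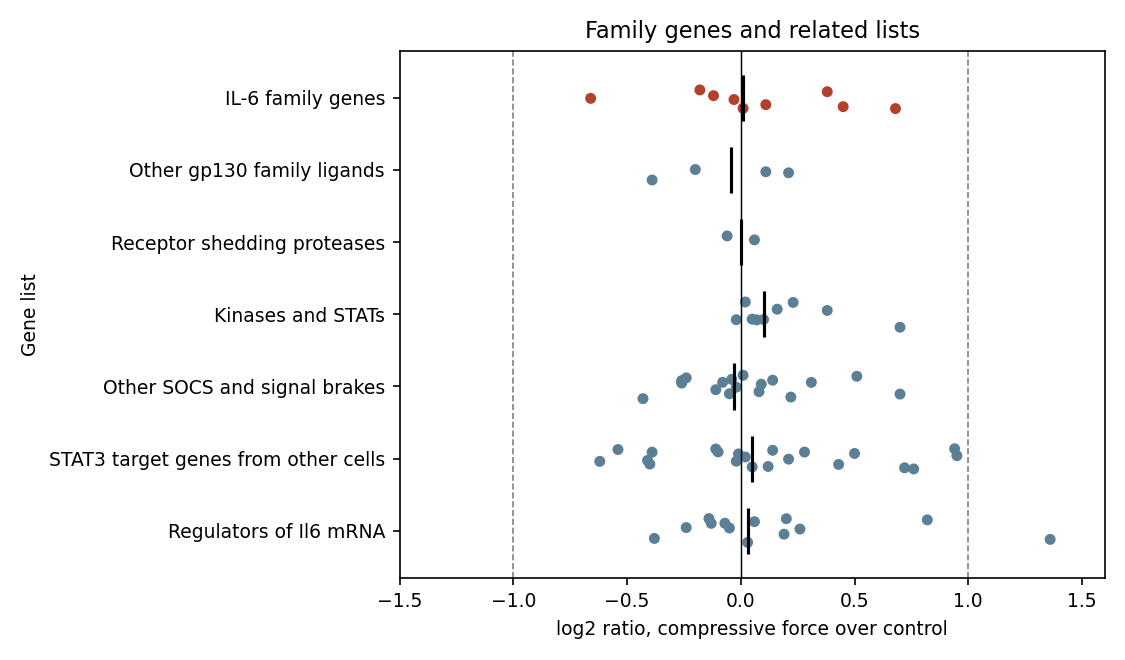
The log2 ratio of compressive force over control for each gene above the CPM minimum, in the pathway genes (red, top) and 6 related lists (blue), with a black bar at each list's median; vertical scatter within a list only separates points. Dashed lines mark a 2-fold difference. Medians lie between -0.05 and 0.10, and Zfp36, at 1.36 in the bottom list, is the point beyond the dashed lines.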

How the data were processed

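Per the submitters' processing notes, HISAT2 and the mouse build GRCm38 were used; no source used here names the counting tool, its annotation, its strandedness or its handling of multiply aligned reads. The authors deposited whole-number read counts per gene, not normalized, for 1 force and 1 control library. All rows carry a gene name. Effective library sizes for CPM came from trimmed mean of M-values (TMM) scaling in edgeR 4.0.16 (R 4.3.3). Ratios of force over control counts used a prior count of 0.5, with exact 95% conditional binomial (Clopper-Pearson) intervals (SciPy 1.17.1), and within-library quotients used exact conditional odds ratio intervals. No test was possible across groups, since no residual degrees of freedom remain with 1 library each. The scripts were tested on simulated data. The members and lists were chosen with earlier results of these data known. All 10 members are named; of each related list, called genes and the 2 highest and 2 lowest ratios above the CPM limit are named. Some genes that this rule selects are not reported here. Counts without strand cannot separate overlapping antisense genes. Gene positions are those of RefSeq on GRCm38.p6. Alternatives were total-count scaling, DESeq2 1.42.0 size factors, upper-quartile factors, a loess fit (limma 3.58.1), no CPM minimum or one of 5, a prior count of 5, a fold limit of 1.5 and assumed coefficients of variation of 0.1 and 0.2 between cultures, whose error was added in quadrature to the interval on the log scale.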

Additional observations from a re-analysis of the deposited data

How the results depend on the processing

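No paired analysis was possible because each group has 1 library, and leaving out a library would leave no comparison. Only the alternative scalings, the loess fit and the prior count of 5 can move a ratio. Over these, the 10 member ratios stayed inside their own counting intervals, with Socs3 between 1.35 and 1.4, Stat3 between 1.29 and 1.33, Lifr between 0.613 and 0.643 and Il6 between 0.192 and 0.369. Osmr, at 0.973 to 1.004, crossed 1 with the loess fit. At a fold limit of 1.5, 1 of the 9 members above 1 CPM was called higher (Il11) and 1 lower (Lifr). At that limit 1023 of the 14001 genes were called higher and 519 lower. Without a CPM minimum 1 of the 10 members was called lower (Il6), as were 369 of 22774 genes (1.62%). With an assumed coefficient of variation of 0.1, 1 member had an interval above 1 and 1 below; with 0.2, 0 and 0 did. DESeq2 size factors, the loess fit and the CPM minimum of 5 each left 2 members above and 2 below, without Il11. In the related lists a fold limit of 1.5 gave 1 gene called higher of 9 kinases and STATs and 1 of 18 SOCS proteins and signal regulators. It gave 2 of 13 regulators of Il6 mRNA and 4 of 21 STAT3 targets, where 1 was called lower. These stand beside the 1023 called higher and 519 called lower of all 14001 genes. Over all genes, 774 were called higher and 369 lower without a CPM minimum, 154 and 12 at a minimum of 5, and 78 were called lower with a prior count of 5. Intervals above and below 1 numbered 1302 and 839 with a coefficient of 0.1, and 467 and 126 with 0.2. Depth limits Il6, Il11 and Lifr most, and culture-to-culture spread was not measured.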
